A study of Oryctolagus cuniculus with 6 samples.

Results

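The genes described here carry sodium, chloride, bicarbonate and water across the tracheal lining. They are the 3 subunits of the epithelial sodium channel ENaC (SCNN1A, SCNN1B and SCNN1G), the apical anion channel CFTR and anion transporters SLC26A4 and SLC26A9, the basolateral cotransporters SLC12A2 and SLC4A4, and the water channels AQP4 and AQP5. Members were taken by gene symbol, and all 10 had a row among the 29587 rows of the gene table. Of these, 8 held enough reads for a test; SLC26A4 and AQP5 did not.

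The animals were New Zealand rabbits, 3 months old, and polyA RNA of their tracheal mucosa was sequenced. In the high cuff pressure group (3 libraries) a 3.0 mm tube was placed 13 cm deep in the trachea, and its cuff was kept at 35 cmH2O over 2 h. The control group also had 3 libraries, for which the labels give no tube, sham procedure or time of sampling. No genotype or drug is named for either group. Each p-value rests on how far libraries of a group differ, and nothing in the labels says whether each library was a separate animal.

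The fluid layer on the airway surface is set by opposing movements of salt. ENaC takes sodium up from the lumen, CFTR and the SLC26 transporters release chloride and bicarbonate into it, and the basolateral cotransporters load those anions into the cell. Water follows through the epithelium, in part through aquaporins.

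Total counts ranged from 10501734 to 14415754 per library. Mitochondrial transcripts took 27.8% to 30.5% of the counts with high cuff pressure and 5.28% to 11.5% in controls. High cuff pressure replicate 1 stood apart on the second principal component (19.7% of the variance), and its summed smooth muscle markers reached 465 CPM (counts scaled to the size of the library), against 3930.5 to 8915 CPM in the other 5 libraries. The labels call the material epithelial cells, yet smooth muscle, fibroblast and neutrophil markers were present in all libraries. Fewer cells of a type and less RNA per cell cannot be told apart in such data.

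Of the 8 members tested, AQP4 was lower with high cuff pressure and 0 were higher. The other 7 did not pass the threshold, an adjusted p under 0.05 in edgeR's quasi-likelihood test with Benjamini-Hochberg adjustment over 13724 genes. Across all genes tested, 5.28% passed in either direction and 1.62% were lower, so 1 of 8 members is a small count to set beside that background. Of all genes, 503 were higher and 222 lower; scaling by library totals alone gave 389 and 1241 (11.9% in all), with the median log2 fold change of all genes at -0.40 against -0.01. DESeq2 gave 1461 and 1170 (19.2%) and limma-voom 519 and 300 (5.97%); among the members DESeq2 called AQP4 and SCNN1G lower, and limma-voom called AQP4 alone. Of the 8 members, 6 had a negative and 2 a positive log2 fold change, with a median of -0.52.

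**Figure D1:**
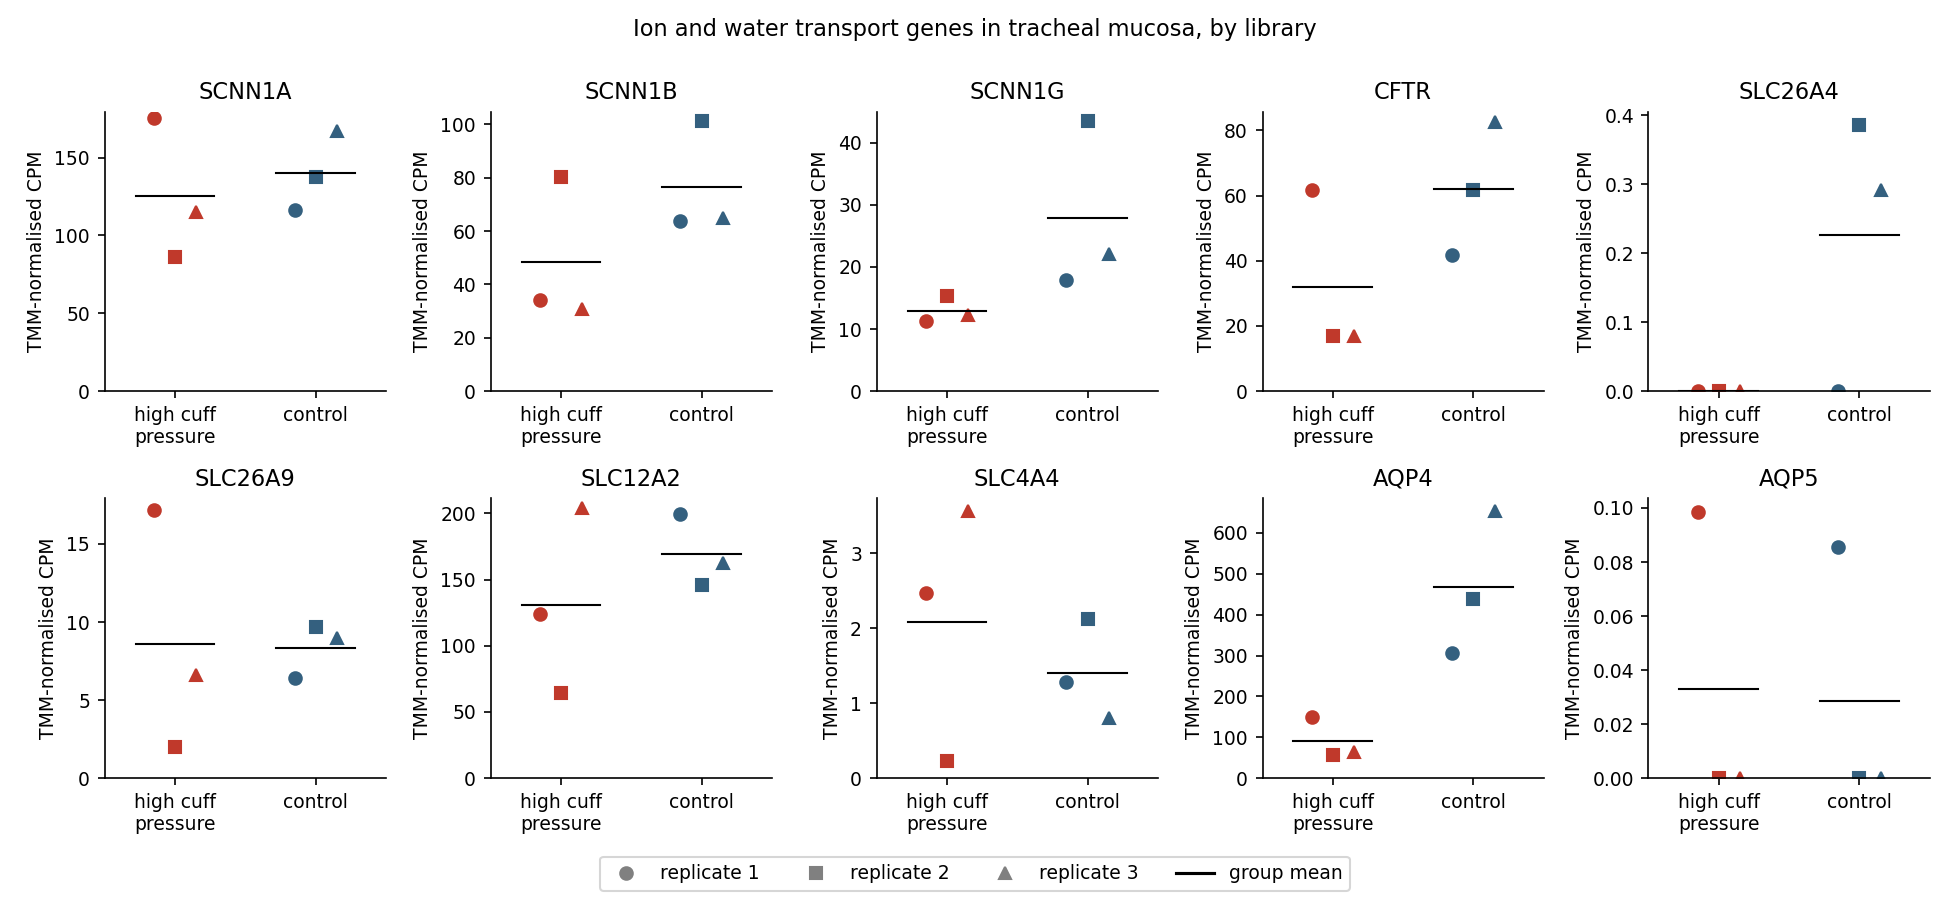
Level of each of the 10 genes in TMM-normalised CPM (y axis, linear from 0, own scale per panel) in the 3 high cuff pressure and the 3 control libraries; symbols mark the replicate and lines the group mean. AQP4 and SCNN1G are the members tested whose groups do not overlap, and SLC26A4 and AQP5 lie near 0.

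Among the water channels, AQP4 showed the largest difference of the 8 members tested. It encodes a channel found in the basolateral membrane of airway surface epithelium in rodents. AQP4 had 149, 57.8 and 65.1 CPM in the high cuff pressure libraries, against 307, 438 and 654 CPM in the control libraries. Each high cuff pressure library lay below each control library, and replicate 1 was the highest of its group. The mean was 90.6 ± 50.6 CPM with high cuff pressure and 467 ± 175 CPM in controls (SD, n = 3 each). The fitted level was 5.15-fold lower with high cuff pressure (log2 fold change -2.37 ± 0.46 SE, unadjusted 95% interval -3.42 to -1.31, edgeR adjusted p = 0.034). The gene, ENSOCUG00000008833, lies on the minus strand of chromosome 9 from 68089263 to 68100365. All positions follow the deposited table; its build is not stated in the labels or headers.

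The AQP4 call did not survive the loss of most single libraries. In edgeR fits with 1 library left out, its adjusted p was 0.0097, 0.11 and 0.075 on leaving out replicate 1, 2 or 3 of the high cuff pressure group, and 0.062, 0.11 and 0.14 on leaving out control replicate 1, 2 or 3. The log2 fold change stayed between -2.92 and -2.04 in these 6 fits. The whole table lost calls as well. Of all genes, 18.7%, 0.0285% and 2.15% passed on leaving out the high cuff pressure libraries in turn, and 0.542%, 0.0% and 0.0% on leaving out the controls in turn. In the fits where 0 genes passed, 2691 and 2496 had an unadjusted p below 0.05.

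Markers of the cells that could carry AQP4 were summed in each library. The 9 multiciliated cell markers with a row summed to 1146 to 3190 CPM with high cuff pressure and to 2850 to 3848 CPM in controls. All 9 had negative log2 fold changes (median -0.60), and 0 passed with edgeR. The unadjusted p was below 0.05 for 2 of them, and DESeq2 called 2 and limma-voom 1 lower. Of the 13724 genes tested, 6925 had a negative value and 29.3% an unadjusted p below 0.05 in edgeR. DESeq2 called 19.2% of them and limma-voom 5.97%, in either direction. The 9 markers differed widely in the size of the change. FOXJ1, the master regulator of motile cilia, averaged 293 ± 100.4 CPM with high cuff pressure and 322 ± 65.3 CPM in controls (SD, n = 3 each; log2 fold change -0.13), the smallest difference of the list. CCDC39, needed to assemble ciliary dynein arms, had 53.5, 19.2 and 13.6 CPM with high cuff pressure, against 80.4, 119 and 173 CPM in controls (log2 fold change -2.11, edgeR adjusted p = 0.060). DNAH5, an outer dynein arm heavy chain, had 408, 201 and 109 CPM with high cuff pressure, against 576, 1340 and 1062 CPM in controls (log2 fold change -2.05, edgeR adjusted p = 0.062). Neither gene's groups overlapped, and both log2 fold changes are close to that of AQP4. In the list 3 of the 9 markers were lower without overlap, beside 18.7% of all genes tested. CCDC39 and DNAH5 were named after their values were seen. The 7 general epithelial markers with a row summed to 2135 to 2305 CPM with high cuff pressure and 1501 to 1626 CPM in controls. With edgeR 1 of them, the tight junction gene CLDN7, was higher (log2 fold change 0.99, adjusted p = 0.047), where 3.67% of all genes were higher. DESeq2 called 3 higher, and 3 had an unadjusted p below 0.05 in edgeR. KRT8, CLDN4 and CLDN7 were higher without overlap, beside 18.6% of all genes tested. KRT8 had 803, 1088 and 915 CPM with high cuff pressure, against 485, 495 and 542 CPM in controls. Of the 7, 4 had positive and 3 negative log2 fold changes. The adhesion molecule gene EPCAM had 124, 159 and 163 CPM with high cuff pressure, against 213, 196 and 154 CPM in controls.

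Per 100 CPM of multiciliated markers, AQP4 stood at 4.67, 2.80 and 5.68 CPM with high cuff pressure, against 10.8, 11.4 and 17.0 CPM in controls. Per 100 CPM of general epithelial markers it stood at 6.61, 2.51 and 3.05 CPM with high cuff pressure, against 20.2, 29.2 and 40.3 CPM in controls. The groups did not overlap on either ratio to a sum, but this depends on the marker: taken over single genes, AQP4 was lower without overlap for 6 of the 9 multiciliated markers and for all 7 general epithelial markers, and overlapped for CCDC39, DNAH5 and SNTN. The ratio of AQP4 to CCDC39 CPM was 2.78, 3.01 and 4.80 with high cuff pressure and 3.82, 3.67 and 3.79 in controls, and that to DNAH5 was 0.365, 0.287 and 0.596 with high cuff pressure and 0.533, 0.327 and 0.616 in controls. These ratios were chosen after the values were seen. AQP4 alone did not overlap between the groups, so its ratio to a marker that differed less would tend not to overlap either. KRT8, CLDN4, CLDN7 and the general epithelial sum were themselves higher without overlap, which lowers the ratio with high cuff pressure further. The part of multiciliated cells in the AQP4 values was not tested. AQP4 is also made by skeletal muscle, whose 6 listed genes with a row summed to at most 21.7 CPM with high cuff pressure and 23.1 CPM in controls.

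**Figure D2:**
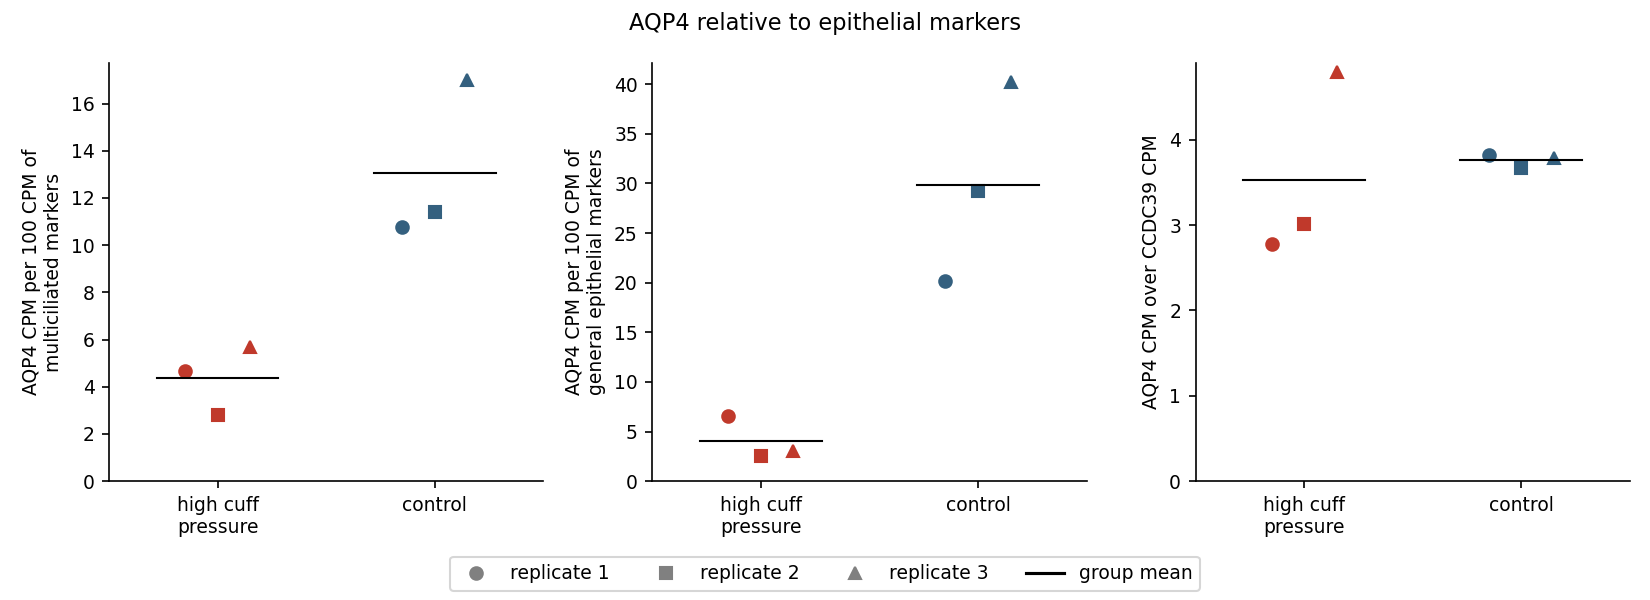
AQP4 CPM per 100 CPM of summed multiciliated markers (left) and of summed general epithelial markers (middle), and AQP4 CPM over the CPM of the single multiciliated marker CCDC39 (right), per library; symbols mark the replicate and lines the group mean. The high cuff pressure libraries sit between 2.80 and 5.68 on the left and between 2.51 and 6.61 in the middle, below all control libraries in both panels, while on the right they lie between 2.78 and 4.80 and overlap the controls.

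The AQP5 row was close to empty. AQP5 encodes the apical water channel known from human and rodent airway glands. Its row (ENSOCUG00000004641, chromosome 4, 34137674 to 34140301) held 1, 0 and 0 reads with high cuff pressure and 1, 0 and 0 reads in controls. That makes 0.0314 CPM over the high cuff pressure group (exact Poisson 95% interval 0.000795 to 0.175) and 0.0244 CPM over the controls (0.000618 to 0.136), intervals that cover counting error only. No fold is given.

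The neighbouring row, named AQP2, was abundant. AQP2 is known as the vasopressin-regulated water channel of the kidney collecting duct. That row (ENSOCUG00000004635, chromosome 4, 34118790 to 34131252) ends 6422 bp before the AQP5 row and held 2435 to 10345 reads per library. It stood at 240.0, 994 and 784 CPM with high cuff pressure, against 682, 627 and 295 CPM in controls, so the groups overlapped (log2 fold change 0.33 ± 0.54 SE, edgeR adjusted p = 0.72). In RefSeq's annotation of another assembly, mOryCun1.1, the order is AQP2, AQP5, AQP6, RACGAP1. In the deposited table the AQP5 row lies between those of AQP2 and RACGAP1; no AQP6 row was used here. Which of these aquaporins the reads of the AQP2 row belong to could not be checked without sequence of the build used, and the near absence of reads in the AQP5 row is a statement about that row alone.

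The ENaC subunits, which together form the channel for sodium uptake, did not pass, and their values differed from subunit to subunit. SCNN1A, a subunit needed for channel assembly, had 175, 86.4 and 115 CPM with high cuff pressure, against 116, 137 and 167 CPM in controls. The highest and the lowest of the 6 libraries were both in the high cuff pressure group. Its log2 fold change was -0.16 ± 0.30 SE (unadjusted 95% interval -0.85 to 0.53, edgeR adjusted p = 0.76). The gene, ENSOCUG00000010152, lies on chromosome 8 from 32420653 to 32443570.

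SCNN1B had 34.3, 80.4 and 30.8 CPM with high cuff pressure, against 63.8, 101 and 64.8 CPM in controls. High cuff pressure replicate 2 lay within the range of the controls and the other 2 libraries of its group lay below it (log2 fold change -0.66 ± 0.40 SE, edgeR adjusted p = 0.30).

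SCNN1G had 11.2, 15.3 and 12.2 CPM with high cuff pressure, against 17.9, 43.4 and 22.2 CPM in controls. The groups did not overlap, but the difference did not pass with edgeR (log2 fold change -1.11 ± 0.37 SE, adjusted p = 0.10). Non-overlap in this direction was common, at 18.7% of all genes tested and 2 of the 8 members. SCNN1G did pass with DESeq2 (adjusted p = 0.038), with library totals alone (0.046) and on log2(FPKM + 1) in limma (0.0495, where 16.6% of all genes passed). Its log2 fold change in edgeR was -0.63 without control replicate 2. SCNN1B (ENSOCUG00000008401, 14108688 to 14165993) and SCNN1G (ENSOCUG00000017394, 14008262 to 14035633) lie near each other on the plus strand of chromosome 6.

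Levels of different genes are compared per length, in the authors' FPKM, which divide a count by the length of the gene model and the library total. SCNN1A made up 89.1%, 66.8% and 84.9% of the summed ENaC FPKM with high cuff pressure, and 75.4%, 66.3% and 80.3% in controls. SCNN1G made up 3.77%, 7.80% and 5.92% with high cuff pressure, and 7.65%, 13.8% and 7.02% in controls. Both ranges overlapped between the groups. SCNN1A was the most abundant subunit in all 6 libraries, with 2.64 to 12.5 times the FPKM of SCNN1B in the high cuff pressure group and 3.33 to 6.32 times in controls.

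**Figure D3:**
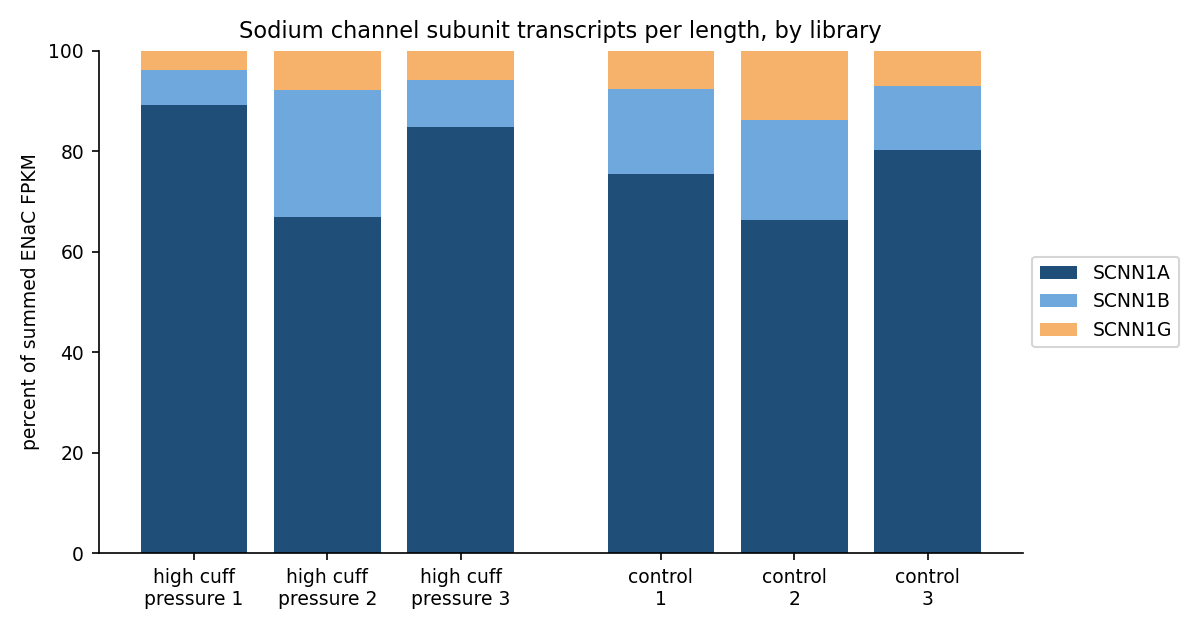
Share of the summed FPKM of SCNN1A, SCNN1B and SCNN1G (y axis, percent) taken by each subunit in each library, with the high cuff pressure libraries on the left. SCNN1A takes 66.3% to 89.1% in the 6 libraries, and high cuff pressure replicate 2 differs from the other libraries of its group by its larger SCNN1B share of 25.4%.

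Among the apical anion pathways, CFTR had a wide spread within the high cuff pressure group. CFTR encodes the cyclic AMP-regulated chloride and bicarbonate channel that is defective in cystic fibrosis. It had 61.7, 16.9 and 17.0 CPM with high cuff pressure, against 41.9, 61.6 and 82.5 CPM in controls. High cuff pressure replicate 1 lay within the range of the controls, and replicates 2 and 3 lay below all of them. The difference did not pass (log2 fold change -0.96 ± 0.54 SE, unadjusted 95% interval -2.20 to 0.28, edgeR adjusted p = 0.27). Without high cuff pressure replicate 1, which also stood apart in smooth muscle markers, it was -1.87 with an edgeR adjusted p = 0.018, in a fit where 18.7% of all genes passed; without any other single library it lay between -1.16 and -0.65 and did not pass. Its row, ENSOCUG00000010733, spans chromosome 7 from 27447979 to 27748244.

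Ionocytes are rare airway cells rich in CFTR in human and mouse. Their 9 markers with a row summed to 113 to 266 CPM with high cuff pressure and 219 to 235 CPM in controls, and 0 passed with edgeR. In that list 1 gene had an unadjusted p below 0.05, DESeq2 called 1 lower and limma-voom 0. Of all genes tested, 29.3% had such a p in edgeR, and DESeq2 called 19.2% and limma-voom 5.97% in either direction. FOXI1, the transcription factor that specifies ionocytes, had 8.28, 10.8 and 6.89 CPM with high cuff pressure, against 7.26, 7.14 and 6.49 CPM in controls. Of the 9 ionocyte markers, 5 had positive and 4 negative log2 fold changes. The groups of PPARGC1A and STAP1 did not overlap, both lower, as did 18.7% of all genes tested. PPARGC1A, a coactivator of mitochondrial genes, had 36.4, 15.9 and 10.53 CPM with high cuff pressure, against 36.7, 65.2 and 59.5 CPM in controls (log2 fold change -1.36, edgeR adjusted p = 0.11). STAP1, a signalling adaptor, had 53.0, 48.6 and 11.7 CPM with high cuff pressure, against 61.3, 54.5 and 83.7 CPM in controls (log2 fold change -0.82, edgeR adjusted p = 0.31). Both were named after their values were seen. Gland markers, with 7 of 12 listed genes in the table, summed to 53.7 to 228 CPM with high cuff pressure and 67.2 to 192 CPM in controls. The part of these cell types in the CFTR values was not tested.

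SLC26A9, an apical chloride transporter and channel, had 17.2, 2.00 and 6.59 CPM with high cuff pressure, against 6.41, 9.65 and 8.96 CPM in controls. The high cuff pressure libraries lay on both sides of the controls, with replicate 1 highest and replicate 2 lowest (log2 fold change 0.04 ± 0.65 SE, unadjusted 95% interval -1.47 to 1.55, edgeR adjusted p = 0.97). The gene, ENSOCUG00000022624, lies on chromosome 16 from 66322764 to 66341513.

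SLC26A4 encodes pendrin, an exchanger of chloride for bicarbonate or iodide that is known from thyroid and from inflamed airway epithelium. It held 0 reads in all 3 high cuff pressure libraries, and 0, 6 and 4 reads in the controls (ENSOCUG00000012634, chromosome 7, 44146119 to 44205081). A count of 0 allows up to 0.0942 CPM over the high cuff pressure group, taken as 3 counts, while the controls stood at 0.244 CPM (exact Poisson 95% interval 0.117 to 0.449). On that floor SLC26A4 was at least 2.59-fold lower with high cuff pressure if the control level is taken as measured, and 1.24-fold lower at the lower limit of the control interval. These figures rest on 10 reads and cover counting error only.

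The basolateral cotransporters also overlapped between the groups. SLC12A2, the sodium, potassium and chloride cotransporter NKCC1 that loads chloride for secretion, had 124, 64.3 and 204 CPM with high cuff pressure, against 199, 146 and 163 CPM in controls. High cuff pressure replicate 2 was the lowest and replicate 3 the highest of the 6 libraries (log2 fold change -0.37 ± 0.39 SE, edgeR adjusted p = 0.55). The gene, ENSOCUG00000001808, lies on chromosome 3 from 11738386 to 11829176.

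SLC4A4, the sodium bicarbonate cotransporter NBCe1, was scarce. It held 25, 2 and 47 reads with high cuff pressure and 15, 33 and 11 reads in controls, or 2.46, 0.235 and 3.56 CPM against 1.28, 2.12 and 0.802 CPM. The high cuff pressure libraries held both the lowest and the 2 highest values (log2 fold change 0.59 ± 0.78 SE, unadjusted 95% interval -1.22 to 2.40, edgeR adjusted p = 0.64). The gene, ENSOCUG00000006500, lies on chromosome 15 from 78490760 to 78947960.

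**Figure D4:**
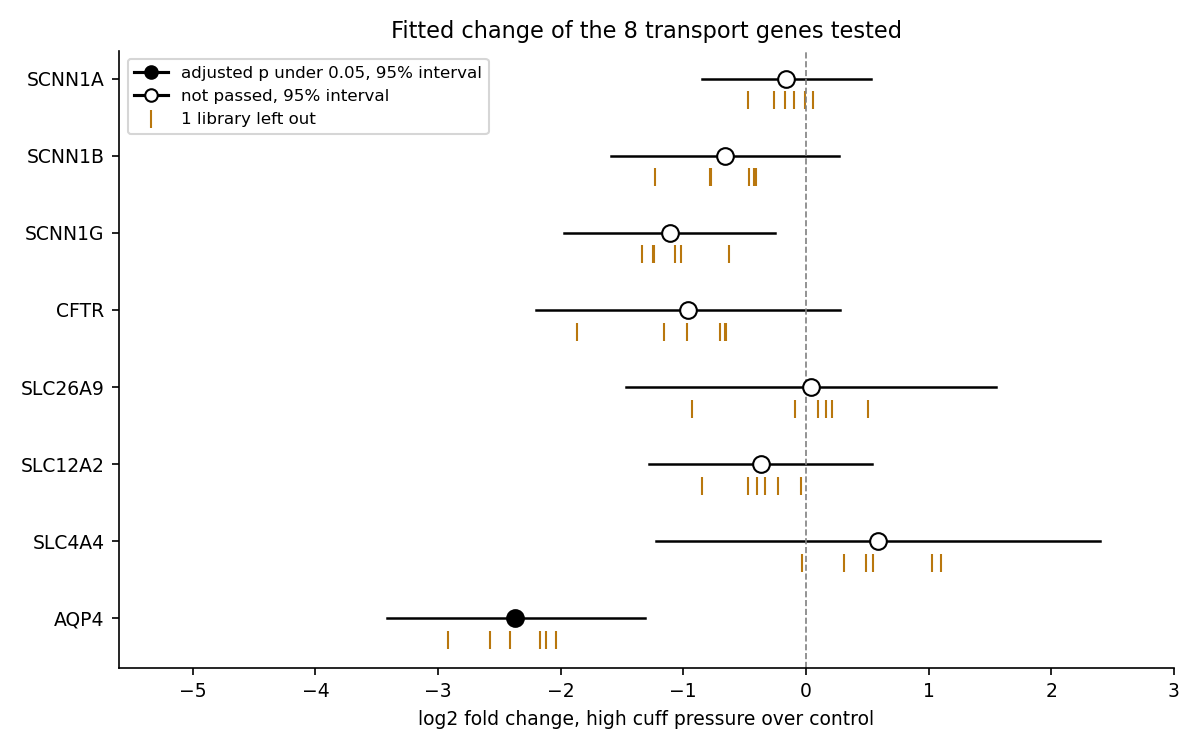
Fitted log2 fold change of high cuff pressure over control (x axis) for the 8 members tested, with the unadjusted 95% interval; the filled point passed the threshold and the small bars are fits with 1 library left out. AQP4 lies between -2.92 and -2.04 in all of those fits, while the bars of SCNN1A, SLC26A9 and SLC4A4 cross 0.

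The order of the members by FPKM differed between the groups at its top. In controls AQP4 ranked first in all 3 libraries, at 173 ± 74.6 FPKM, followed by SCNN1A at 104 ± 26.1 FPKM and SLC12A2 at 52.4 ± 3.98 FPKM (SD, n = 3). With high cuff pressure SCNN1A ranked first in all 3 libraries, at 71.1 ± 27.9 FPKM (SD, n = 3). By group mean SLC12A2 followed at 31.7 ± 18.4 FPKM and AQP4 at 25.3 ± 14.8 FPKM (SD, n = 3). By library, AQP4 lay above SLC12A2 in high cuff pressure replicates 1 and 2 and below it in replicate 3, where SLC12A2 had 50.9 FPKM. SCNN1B ranked second in replicate 2 of that group. The ratio of AQP4 to SCNN1A FPKM was 0.420, 0.330 and 0.279 with high cuff pressure and 1.31, 1.58 and 1.94 in controls. In the controls SCNN1G at 13.8 ± 7.57 FPKM and CFTR at 12.3 ± 4.77 FPKM did not differ beyond their spread, nor did SLC12A2 and AQP4 with high cuff pressure. SLC26A9 averaged 2.94 FPKM with high cuff pressure and 3.73 FPKM in controls, and SLC4A4 0.428 FPKM with high cuff pressure and 0.368 FPKM in controls. FPKM divide by totals that include mitochondrial reads, and on log2(FPKM + 1) the median difference of all genes was -0.35; ratios within a library do not depend on those totals.

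The high cuff pressure libraries also differed among themselves. Replicate 2 was the lowest of the 6 libraries for 6 of the 8 members tested, the exceptions being SCNN1B and SCNN1G. For CFTR it lay only just below replicate 3 (16.9 and 17.0 CPM). Replicate 2 was also the library furthest out on the first principal component (-78.6, 52.6% of the variance). Replicate 1 was the highest of its group for 4 members, namely SCNN1A, CFTR, SLC26A9 and AQP4. Such counts were not taken over all genes, so they cannot be read as a trait of the members. Of 7 neutrophil markers tested, 5 were higher and 1 lower with high cuff pressure by edgeR, where 3.67% of all genes were higher and 1.62% lower. The neutrophil markers summed to 6848, 3649 and 1524 CPM in replicates 1, 2 and 3, against 148 to 614 CPM in controls. Their part in the values of the members was not tested.

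The other transport genes were read from 7 lists of 75 genes, of which 65 had a row and 54 were tested. With high cuff pressure 2 of the 54 were higher and 0 lower by edgeR, where 3.67% of all genes were higher and 1.62% lower. Their median log2 fold change was 0.05, beside -0.01 for all genes. DESeq2 called 7 higher and 3 lower, or 18.5% of the 54 beside 19.2% of all genes. An unadjusted p below 0.05 in edgeR was found for 14, or 25.9% beside 29.3% of all genes.

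ADORA2B, the adenosine receptor that stimulates CFTR through cyclic AMP, was one of the 2. It had 72.3, 53.5 and 50.3 CPM with high cuff pressure, against 23.2, 15.5 and 18.6 CPM in controls. All high cuff pressure libraries lay above all controls (log2 fold change 1.62 ± 0.26 SE, edgeR adjusted p = 0.023). In edgeR the call was lost on leaving out replicate 2 of the high cuff pressure group (adjusted p = 0.067) or control replicate 1, 2 or 3 (0.062, 0.11 and 0.12).

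ATP1B3, a beta subunit of the sodium pump, was the other. It had 117, 192 and 195 CPM with high cuff pressure, against 85.0, 51.3 and 52.3 CPM in controls (log2 fold change 1.42 ± 0.31 SE, edgeR adjusted p = 0.045). Here too the groups did not overlap. This call was kept without high cuff pressure replicate 1 and lost in the other 5 edgeR fits with 1 library left out, where the adjusted p lay between 0.063 and 0.18.

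**Figure D5:**
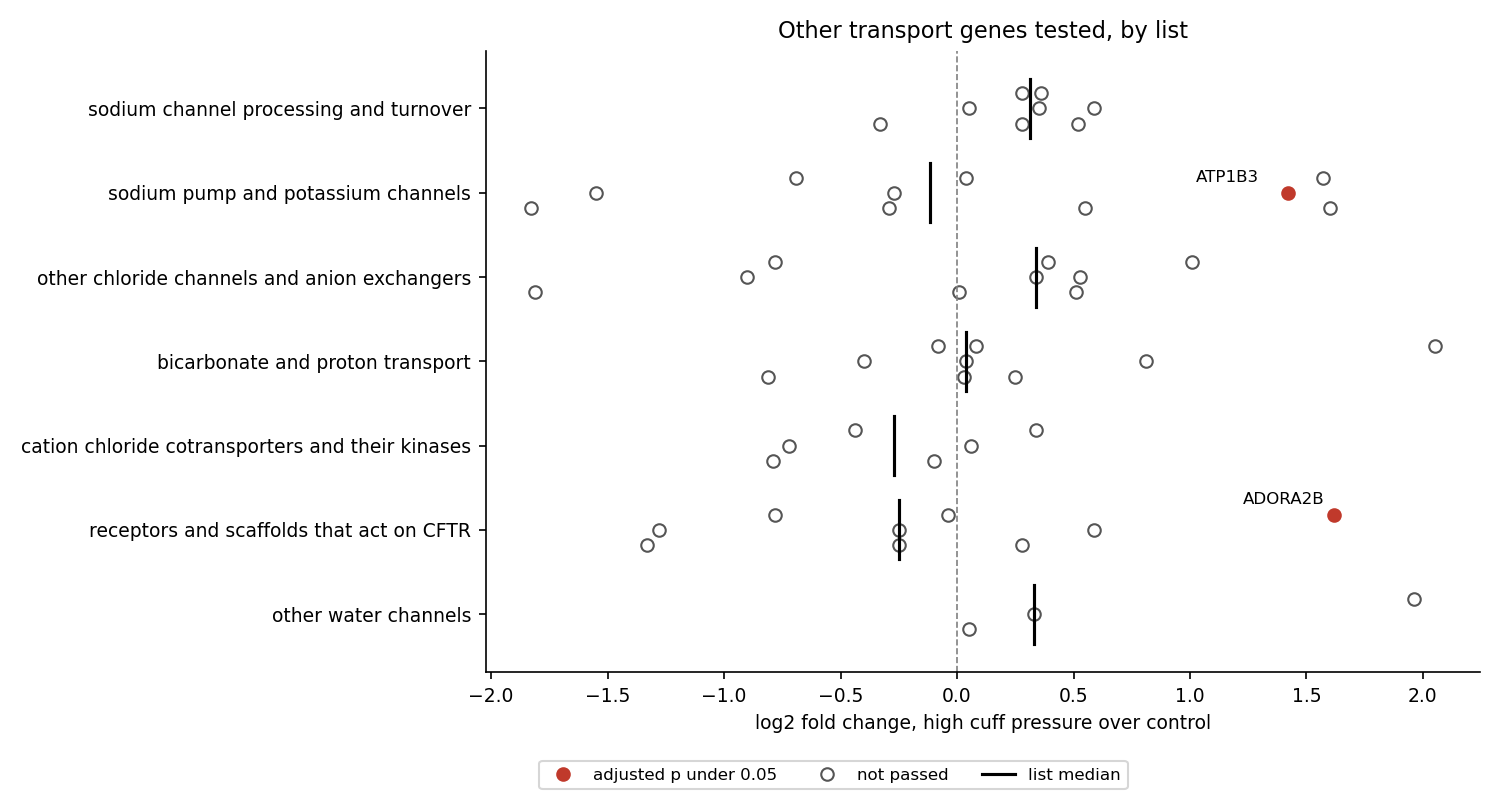
Log2 fold change of high cuff pressure over control (x axis) for the 54 other transport genes tested, by list; filled points passed the threshold and vertical lines mark list medians. ATP1B3 at 1.42 and ADORA2B at 1.62 are the genes past the threshold, and list medians run from -0.27 to 0.34.

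In the remaining 5 lists 0 genes passed with edgeR or limma-voom. Among the 8 genes that process or turn over ENaC, 7 had positive values (median 0.31), beside 6799 of the 13724 genes tested. In this list 1 gene had an unadjusted p under 0.05 in edgeR, beside 29.3% of all genes, and DESeq2 called 0. The smallest p there belonged to SPINT2, an inhibitor of channel-activating proteases, at 534 ± 96.0 CPM with high cuff pressure and 355 ± 34.6 CPM in controls (SD, n = 3 each; edgeR adjusted p = 0.16). Among 9 other chloride channels and anion exchangers (median 0.34), the exchanger gene SLC26A6 had 25.9, 24.5 and 19.9 CPM with high cuff pressure, against 13.2, 12.03 and 9.69 CPM in controls. The groups did not overlap, and SLC26A6 missed the threshold (log2 fold change 1.01, edgeR adjusted p = 0.058), while DESeq2 called it (adjusted p = 0.0044).

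Among 9 genes of bicarbonate and proton transport the median was 0.04, and DESeq2 called 2 genes of that list higher. Among 6 cation chloride cotransporters and their kinases (median -0.27), STK39, a kinase that activates SLC12A2, averaged 31.5 ± 5.74 CPM with high cuff pressure and 54.5 ± 17.2 CPM in controls (SD, n = 3 each; edgeR adjusted p = 0.13). Its adjusted p was 0.043 with library totals alone, and 0.035 and 0.039 on log2 FPKM with pseudocounts of 1 and 0.1 in limma. These gene groups each had 1 or 2 members with an unadjusted p under 0.05.

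AQP3, the aquaglyceroporin of airway basal cells, had 257, 520 and 1360 CPM with high cuff pressure, against 239, 189 and 121 CPM in controls. All high cuff pressure values lay above the controls, and replicate 3 was the highest (log2 fold change 1.96 ± 0.59 SE, edgeR adjusted p = 0.083). In edgeR fits with 1 library left out, AQP3 passed on leaving out high cuff pressure replicate 1 (2.36, adjusted p = 0.022, where 18.7% of all genes passed), and its log2 fold change was 1.09 (adjusted p = 0.15) on leaving out replicate 3 of that group. The basal cell keratin gene KRT5 had a like order, with 387, 945 and 2374 CPM with high cuff pressure, against 327, 259 and 124 CPM in controls (log2 fold change 2.38, edgeR adjusted p = 0.073). The 7 basal cell markers with a row summed to 741 to 3052 CPM with high cuff pressure and 341 to 686 CPM in controls. KRT5 made up much of these sums. All 7 had positive log2 fold changes (median 0.80), and 3 were higher without overlap, beside 18.6% of all genes tested. LAMB3, KRT17 and ITGB4 had log2 fold changes of 1.37, 1.00 and 0.80, while TP63, NGFR and DLK2 had 0.03, 0.01 and 0.11. Of the 7, 0 passed with edgeR or limma-voom, while DESeq2 called 2 higher and 4 had an unadjusted p below 0.05 in edgeR. Of all genes tested, DESeq2 called 19.2% in either direction, and 29.3% had such a p in edgeR. The part of basal cells in the AQP3 values was not tested.

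The authors' deposited table, made from their own test of the same 6 libraries, gives AQP4 a q-value of 2.43e-05. In the authors' deposited table the other 9 members have q-values from 0.073 for SCNN1G to 1.0 for SLC26A9 and AQP5.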

How the data were processed

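PolyA RNA libraries of tracheal mucosa (3 per group) were assigned and numbered by the library names in the labels; control replicate 3 is titled S4 there. The authors deposited raw read counts per gene and, per the file headers, FPKM, which equal counts over model length and library total. The authors also deposited a p-value and a q-value per gene. Per the submitters' processing notes, the tools were HISAT2 2.0.4, StringTie 1.3.3b and edgeR, with no roles named. Build, strand and counting settings: not given in the sources used here.

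Raw counts as deposited went into edgeR 4.0.16 (R 4.3.3), using filterByExpr, TMM factors, robust glmQLFit and glmQLFTest, with Benjamini-Hochberg adjustment over 13724 genes. CPM are TMM-normalised, and SEs were derived from the log2 fold change and its F statistic. A floor of 3 counts is 0.193 to 0.353 CPM in a single library, and intervals and floors cover counting error only. Libraries of one group differed by far more than counting error (chi-square of 59.8 to 147 for each degree of freedom), and each is 1 replicate. The alternatives were DESeq2 1.42.0, limma 3.58.1 (voom, and log2 FPKM with pseudocounts of 1 and 0.1 with genes reaching 1 FPKM in 3 libraries), RLE factors, library totals, other filters, the replicate block and leaving out each library; a fit without mitochondrial genes was added after seeing the data. Members and lists were chosen with earlier results of these data known. The text names all members, transport list genes past the threshold or else the smallest p per list, and the first and the called markers; not all of these are described, some list genes are not reported here, and AQP2 and the genes under other observations were named after their values were seen. The scaffold gene NHERF1 was matched through the older symbol SLC9A3R1.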

Additional observations from a re-analysis of the deposited data

How the results depend on the processing

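The number of members past the threshold was 1 in the main analysis and 2 with library totals only, DESeq2 and FPKM with a pseudocount of 1 (AQP4 and SCNN1G in each). Among the other transport genes 2 passed, against 6, 10, 8 and 7 with library totals, DESeq2 and FPKM with pseudocounts of 1 and 0.1. Of those, 0 were lower in the main analysis, against 4, 3, 6 and 5, so their direction depended on the scaling. Of all genes 725 passed (222 lower), against 1630, 2631, 2192 and 1859 (1241, 1170, 1745 and 1446 lower) in those settings. With 1 library left out the numbers passing ranged from 0 to 2 for members, from 0 to 7 for other transport genes and from 0 to 2623 for all genes. Where 0 of all genes passed, 2691 and 2496 had an unadjusted p under 0.05 in edgeR. With the replicate block they were 0, 1 and 244, and AQP4 had a log2 fold change of -2.46 (edgeR adjusted p = 0.054). Same-numbered libraries did not deviate together (correlations -0.277, -0.201 and -0.234). With 3 libraries per group, centred on their own mean, this check cannot exclude a weaker pairing, and the labels state none. AQP4 was lower under all 16 alternatives (-2.92 to -2.04). SLC26A9 turned negative with library totals (-0.34), limma-voom (-0.39), FPKM (-0.48 and -0.77) and the replicate block (-0.38), and ranged from -0.93 to 0.51 with 1 library left out. In those fits SCNN1A ranged from -0.47 to 0.06, SLC4A4 from -0.03 to 1.10, FOXJ1 from -0.38 to 0.11 and AQP2 from -0.06 to 0.74. FOXI1 had -0.09, -0.09 and -0.10, and AQP2 -0.07, -0.20 and -0.20, with library totals and FPKM at both pseudocounts. The cause was not tested, other than that library totals and FPKM keep the shift of the median of all genes (-0.40, -0.35 and -0.41). Depth limits SLC26A4, SLC4A4 and AQP5, with 10, 133 and 2 reads in all.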

Other observations

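Several partners of the described transporters did not pass the threshold in edgeR but had groups that overlapped little or not at all; they were picked after their values were seen. Such separation was common: 11.1% of the 54 other transport genes were lower and 18.5% higher without overlap, beside 18.7% and 18.6% of all genes. Of the sodium pump's beta subunits, ATP1B1 had 288, 160 and 129 CPM with high cuff pressure, against 310, 310 and 314 CPM in controls (log2 fold change -0.69 ± 0.32 SE, edgeR adjusted p = 0.19), while ATP1B3 was higher. The potassium channel genes named here went in both directions. Which cells of this mixed material carried their transcripts was not tested. KCNJ15 had 227, 105 and 116 CPM with high cuff pressure, against 60.0, 62.8 and 24.9 CPM in controls (edgeR adjusted p = 0.068). KCNJ16 had 1.18, 2.12 and 1.29 CPM with high cuff pressure, against 6.84, 7.79 and 1.60 CPM in controls (edgeR adjusted p = 0.11). KCNMA1, the large-conductance calcium-activated channel, had 6.21, 6.12 and 14.0 CPM with high cuff pressure, against 18.4, 36.7 and 22.4 CPM in controls (edgeR adjusted p = 0.071).

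CA12, a membrane carbonic anhydrase, reached 90.2 CPM in high cuff pressure replicate 1, with 13.1 and 21.4 CPM in replicates 2 and 3, against 12.05, 9.65 and 8.31 CPM in controls (edgeR adjusted p = 0.099). VIPR1, a receptor for vasoactive intestinal peptide that raises cyclic AMP as ADORA2B does, averaged 4.88 ± 1.38 CPM with high cuff pressure and 11.8 ± 4.82 CPM in controls (SD, n = 3 each; edgeR adjusted p = 0.086). DESeq2, where 19.2% of all genes passed, called KCNJ15, KCNJ16 and KCNMA1 (adjusted p = 0.0060, 0.033 and 0.0069). It also called CA12 and VIPR1 (0.013 and 0.022) but not ATP1B1 (0.16). KCNMA1 and VIPR1 passed with library totals too. On log2 FPKM at both pseudocounts in limma, KCNMA1, VIPR1 and ATP1B1 passed. In all these genes the difference between one gene's change and another's was not tested.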
